A study of Mus musculus with 7 samples.

Results

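Glycolysis in reprogramming cells was followed here through 39 genes. Most code for the enzymes and transporters from glucose uptake to lactate export and for the branches that lead pyruvate into mitochondria. Others sit beside these steps, among them Fbp1, Fbp2, Pgm1, Acss1 and Aldh3a1, and all 39 enter the counts below. The genes are a list of symbols drawn up by role in the pathway, with earlier results of these data known, and were matched to the Ensembl gene IDs of the deposited tables. All 39 were found among the 29267 genes, and 35 of them reached 1 TPM in every library. TPM is a read count divided by the length of the transcript and brought to one common total, so levels can be set side by side between genes.

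The study asked whether the metabolic shift towards glycolysis that accompanies reprogramming runs differently in 5C medium. The cells were OG2 fibroblasts of mid-gestation mouse embryos, which carry a GFP transgene under an Oct4 regulatory region, infected with retroviruses for Oct4, Sox2, Klf4 and c-Myc, and all libraries except R1 ESCs-primed share that origin. At day 15, cells grown in mES medium (serum, pyruvate, vitamin C and LIF) or in 5C medium (serum-free DMEM/F12 with N2, bFGF, β-mercaptoethanol, vitamin C and LIF) were sorted into Oct4GFP+ and Oct4GFP- fractions. 5C-Oct4GFP+ cells were then moved to naive medium (LIF, CHIR99021, PD0325901, vitamin C) or to primed medium (bFGF and activin A, later CHIR99021 and IWR1), and the labels give 20 passages for these libraries and for R1 ESCs-primed, cells of the mouse embryonic stem cell line R1 kept in the primed state. Another description of the naive and primed libraries gives 3 days in the medium, so how long these cells had been in it is uncertain. Each of the 7 groups is 1 library of bulk mRNA.

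With 1 library per group there is no replicate check, and no test was made. Differences are given on the log2(TPM + 1) scale and called when they reach 2-fold, which understates the differences of low genes. A fold written with a range in brackets is a ratio of TPM with its 95% counting interval, which covers the error of counting reads and not the spread between cultures. In these bulk samples, fewer cells of a type and less RNA per cell cannot be told apart.

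The libraries held between 6108252 and 11496615 reads assigned to genes. Their labels were checked against marker lists. Nanog stood at 697 and 253 TPM in the Oct4GFP+ cells of mES and 5C medium, against 17.1 and 119.5 TPM in their Oct4GFP- cells. Pou5f1, the gene of Oct4, was between 1321 and 3640.4 TPM in every library and did not separate the fractions. Its transcripts from the virus and from the cell's own gene cannot be told apart in these tables, and the same holds for Myc. The 8 fibroblast markers summed to 499.7 TPM in mES-Oct4GFP- and 262.1 TPM in 5C-Oct4GFP- cells, to 217.7 TPM in R1 ESCs-primed, to 77.0 TPM in the primed library, and to between 10.5 and 15.7 TPM in the other 3 libraries. All 8 were at or above 1 TPM in both Oct4GFP- libraries, in the primed and in the R1 ESCs-primed library. The 6 epithelial markers were at or above 1 TPM in both Oct4GFP- libraries, with sums of 1621.6 TPM in mES medium and 775.9 TPM in 5C medium. In the other 5 libraries, 3 to 5 of the 6 were, with sums between 507.3 and 1374.4 TPM. The 4 keratins of this list were higher in the Oct4GFP- than in the Oct4GFP+ fraction of both media, Krt14 being at 75.3 TPM in mES-Oct4GFP- and at 0 in mES-Oct4GFP+ cells, whereas Cdh1 was lower in it in both, at 124 against 295 TPM in mES medium. Epcam was 218 and 207.5 TPM in those libraries. The part of such cells in the results below was not tested.

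Glycolysis splits glucose into pyruvate. GLUT transporters bring glucose in, hexokinase traps it as a phosphate, phosphofructokinase commits it, and the steps from aldolase to pyruvate kinase harvest ATP and NADH. Pyruvate is then either reduced to lactate by lactate dehydrogenase and exported by monocarboxylate transporters, or enters mitochondria through the pyruvate carrier and becomes acetyl-CoA by pyruvate dehydrogenase, which PDH kinases switch off. Naive mouse pluripotent cells are known to use both glycolysis and respiration, and primed ones to rely mainly on glycolysis.

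The members summed to between 13796 TPM in mES-Oct4GFP+ and 30818 TPM in mES-Oct4GFP- cells, or 1.38% and 3.08% of all transcripts. The sum was 20296 TPM in 5C-Oct4GFP+, 15697 in 5C-Oct4GFP-, 19521 in the naive, 28336 in the primed and 26634 TPM in the R1 ESCs-primed library. Gapdh alone held between 5680.4 and 11903 TPM. mES-Oct4GFP- cells had the highest level of 19 of the 39 members, while 25.3% of all genes were highest there. mES-Oct4GFP+ cells had the lowest level of 11 members, against 16.4% of all genes.

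**Figure D1:**
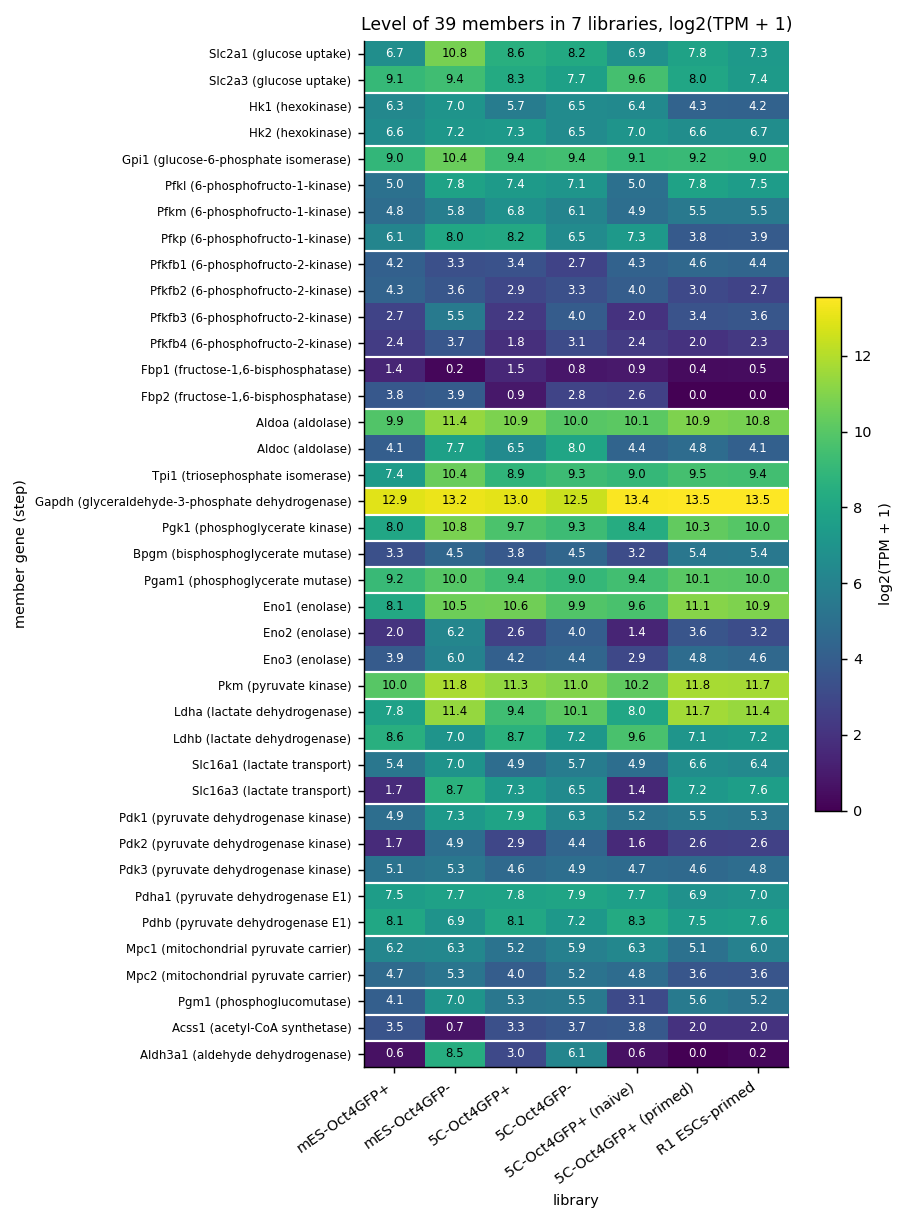
Level of each of the 39 members (rows, with their step) in each of the 7 libraries (columns), as log2(TPM + 1), with the value printed in each cell and white lines between steps. The column of mES-Oct4GFP- cells holds the highest value of 19 members, and the columns of mES-Oct4GFP+ cells and of the naive library are low for Ldha, Slc16a3 and Pfkl.

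The first question was how 5C medium differs from mES medium among cells that had reached Oct4GFP. In 5C-Oct4GFP+ cells, 15 of the 39 members were at least 2-fold higher than in mES-Oct4GFP+ cells, 3 were at least 2-fold lower and 21 lay within 2-fold. Higher members were 38.5% of the list and lower ones 7.69%, against 13.7% and 13.5% of the 15196 genes tested. The median difference was 0.37 over the members and -0.06 over all genes tested. The higher members were the glucose transporter Slc2a1, all 3 phosphofructokinase subunits (Pfkl, Pfkm, Pfkp), Aldoc, Tpi1, Pgk1, Eno1, Pkm, Ldha, the lactate exporter Slc16a3, the kinases Pdk1 and Pdk2, Pgm1 and Aldh3a1. The lower ones were Pfkfb2, Fbp2 and the pyruvate carrier subunit Mpc1. The difference of Mpc1, -1.05, was at the threshold, and its call ended after rescaling each library by the median of its ratios to the mean library.

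Among Oct4GFP- cells the picture was the other way round. In 5C-Oct4GFP- cells, 17 of the 38 members tested were at least 2-fold lower than in mES-Oct4GFP- cells and 1, Acss1, was higher. Lower members were 44.7% of those tested, against 10.1% of the 15859 genes tested, and the higher one was 2.63%, against 9.68%. The median difference was -0.77 over the members and 0.03 over all genes. Fbp1 did not reach 1 TPM in either library.

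Of the 38 members tested in both comparisons, 9 were at least 2-fold higher with 5C medium in the Oct4GFP+ fraction and at least 2-fold lower with it in the Oct4GFP- fraction. They were Slc2a1, Pfkp, Tpi1, Pgk1, Ldha, Slc16a3, Pdk1, Pgm1 and Aldh3a1. These are 23.7% of the members, against 2.11% of the 13903 genes tested in both. No member showed the opposite pair of calls. The 2 comparisons share no library, but the 2 fractions were sorted from cells grown in the same medium. The comparisons may therefore not be independent. With 1 library per group the difference between them could not be tested.

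**Figure D2:**
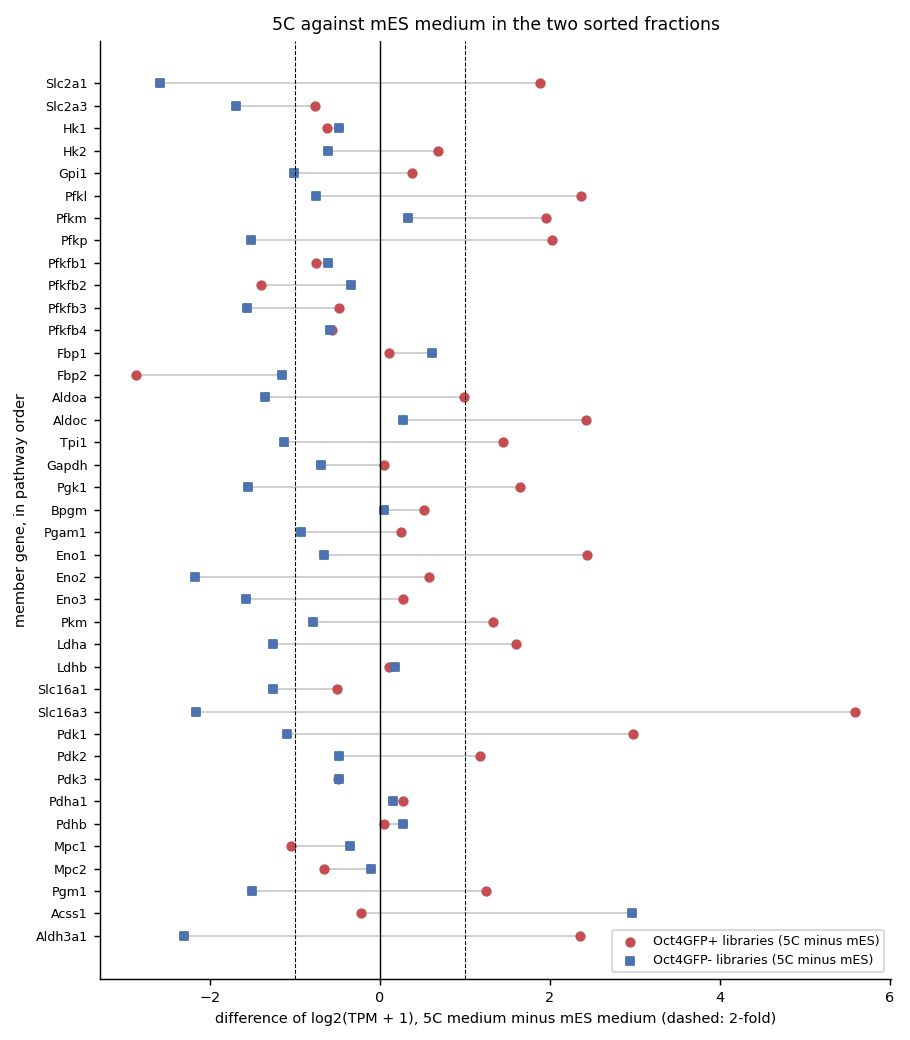
Difference of log2(TPM + 1) between 5C and mES medium for each member in pathway order, in the Oct4GFP+ libraries (red circles) and in the Oct4GFP- libraries (blue squares), with dashed lines at 2-fold. Slc16a3 spans from -2.17 to 5.59, and for 9 members the circle lies beyond the right line and the square beyond the left one.

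The list holds 2 genes of glucose transporters at the cell surface. Slc2a1 codes for GLUT1, the basal glucose transporter of many cells, and lies at chr4:119108711-119137983 (GRCm38). It was 102 TPM in the Oct4GFP+ and 1765 TPM in the Oct4GFP- fraction of mES medium, 378 and 293 TPM in the same fractions of 5C medium, and 116, 222 and 161 TPM in the naive, primed and R1 ESCs-primed libraries. mES-Oct4GFP- cells stood far above the rest, and mES-Oct4GFP+ and naive cells were lowest. The level was 3.71-fold (3.45 to 3.99) higher with 5C medium in the Oct4GFP+ fraction and 6.03-fold (5.81 to 6.26) lower with 5C medium in the Oct4GFP- fraction. Slc2a3 codes for GLUT3, a transporter with high affinity for glucose. Its levels were 533 (mES-Oct4GFP+), 667 (mES-Oct4GFP-), 313 (5C-Oct4GFP+), 205 (5C-Oct4GFP-), 755 (naive), 261 (primed) and 163 TPM (R1 ESCs-primed). It was lower with 5C medium in both fractions, by 1.7-fold (1.65 to 1.76) in Oct4GFP+ and by 3.25-fold (3.13 to 3.38) in Oct4GFP- cells. Slc2a1 made up 16.0% of the TPM of both transporters in mES-Oct4GFP+ and 13.3% in naive cells, and between 46.0% and 72.6% in the other 5 libraries. The sum of both genes was 635 TPM with mES and 691 TPM with 5C medium in Oct4GFP+ cells.

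Hexokinase phosphorylates glucose. Hk2, the isoenzyme that is inducible in many tissues, had 96.4 (mES-Oct4GFP+), 141 (mES-Oct4GFP-), 155 (5C-Oct4GFP+), 92.1 (5C-Oct4GFP-), 129 (naive), 99.0 (primed) and 99.7 TPM (R1 ESCs-primed). No library was more than 1.68-fold above another. Hk1, the more widely expressed isoenzyme, ranged from 17.98 TPM in R1 ESCs-primed to 129 TPM in mES-Oct4GFP- cells. In 5C-Oct4GFP- cells Hk1 stood at 91.9 TPM beside 92.1 TPM of Hk2. The share of Hk2 in hexokinase was 54.6% in mES-Oct4GFP+ cells, 75.1% in 5C-Oct4GFP+ cells, 83.9% in primed and 84.7% in R1 ESCs-primed cells. Gpi1, which turns glucose-6-phosphate into fructose-6-phosphate, was 506 TPM in the Oct4GFP+ and 1391 TPM in the Oct4GFP- fraction of mES medium, 652 and 688 TPM in the same fractions of 5C medium, and 537, 569 and 528 TPM in the naive, primed and R1 ESCs-primed libraries. mES-Oct4GFP- cells were again highest, 2.02-fold (1.96 to 2.09) above 5C-Oct4GFP- cells (a call that ended, at -0.98, with FPKM, the deposited values scaled by length and library total), and the other 6 libraries lay between 506 and 688 TPM. A processed copy, Gm1840, shares 58.0% of its 31-base words with Gpi1 and was at most 10.2 TPM.

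Phosphofructokinase-1, the committed step, is built from 3 kinds of subunit. Pfkl, named for liver, had 31.7 (mES-Oct4GFP+), 221 (mES-Oct4GFP-), 168 (5C-Oct4GFP+), 132 (5C-Oct4GFP-), 31.04 (naive), 223 (primed) and 177 TPM (R1 ESCs-primed). Pfkm, named for muscle, had 27.8 (mES-Oct4GFP+), 53.9 (mES-Oct4GFP-), 110.3 (5C-Oct4GFP+), 67.97 (5C-Oct4GFP-), 28.2 (naive), 43.8 (primed) and 43.8 TPM (R1 ESCs-primed). Pfkp, named for platelets, had 70.0 (mES-Oct4GFP+), 263 (mES-Oct4GFP-), 287 (5C-Oct4GFP+), 91.4 (5C-Oct4GFP-), 160.0 (naive), 13.4 (primed) and 13.5 TPM (R1 ESCs-primed). mES-Oct4GFP+ and naive cells were low in Pfkl and Pfkm, and the primed and R1 ESCs-primed libraries were low in Pfkp. With 5C medium all 3 were higher in Oct4GFP+ cells, Pfkl by 5.29-fold (4.75 to 5.91), Pfkm by 3.97-fold (3.48 to 4.55) and Pfkp by 4.1-fold (3.79 to 4.44). Their sum was 129 TPM with mES and 565 TPM with 5C medium, the lowest and the highest of the 7 libraries. In the Oct4GFP- fraction Pfkp was 2.88-fold (2.69 to 3.08) lower with 5C medium, while Pfkl and Pfkm differed by less than 2-fold. Pfkp made up 73.0% of the subunit TPM in naive cells but 4.78% in primed and 5.77% in R1 ESCs-primed cells, where Pfkl took 79.6% and 75.5%.

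The 4 Pfkfb genes code for enzymes that make and remove fructose-2,6-bisphosphate, an activator of phosphofructokinase-1. Their sum was low, from 22.4 TPM in 5C-Oct4GFP+ to 77.3 TPM in mES-Oct4GFP- cells. Pfkfb3, the form with the strongest kinase activity, had 5.53 (mES-Oct4GFP+), 45.2 (mES-Oct4GFP-), 3.68 (5C-Oct4GFP+), 14.5 (5C-Oct4GFP-), 2.92 (naive), 9.9 (primed) and 11.2 TPM (R1 ESCs-primed). mES-Oct4GFP- cells were 3.11-fold (2.71 to 3.59) above 5C-Oct4GFP- cells, and 5C-Oct4GFP+ cells were low. Pfkfb2 had 18.8 (mES-Oct4GFP+), 11.3 (mES-Oct4GFP-), 6.49 (5C-Oct4GFP+), 8.72 (5C-Oct4GFP-), 14.7 (naive), 6.83 (primed) and 5.57 TPM (R1 ESCs-primed), and was 2.9-fold (2.25 to 3.75) lower with 5C medium in the Oct4GFP+ fraction. Pfkfb1, the member of this step with the highest mean, had 16.98 (mES-Oct4GFP+), 9.04 (mES-Oct4GFP-), 9.7 (5C-Oct4GFP+), 5.59 (5C-Oct4GFP-), 18.4 (naive), 23.2 (primed) and 20.3 TPM (R1 ESCs-primed). Neither medium comparison reached 2-fold for it. Pfkfb4 ranged from 2.53 TPM in 5C-Oct4GFP+ to 11.8 TPM in mES-Oct4GFP- cells.

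Fructose-1,6-bisphosphatase runs the committed step backwards, in gluconeogenesis. Fbp2, its muscle form, had 12.5 (mES-Oct4GFP+), 14.1 (mES-Oct4GFP-), 0.84 (5C-Oct4GFP+), 5.8 (5C-Oct4GFP-), 5.07 (naive), 0 (primed) and 0 TPM (R1 ESCs-primed). Cells in mES medium were highest, 5C-Oct4GFP+ cells rested on 6 reads, and the primed and R1 ESCs-primed libraries held no read, where 3 reads would have been 0.38 and 0.62 TPM. The ratio of mES-Oct4GFP+ to 5C-Oct4GFP+ cells was 14.9-fold (6.39 to 42.3). Fbp1, the liver form, had 1 to 15 reads per library and at most 1.87 TPM, a depth at which differences between libraries were not detectable with any precision.

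From aldolase to phosphoglycerate mutase the members were abundant. Aldoa, the main aldolase, had 934 (mES-Oct4GFP+), 2712.5 (mES-Oct4GFP-), 1853 (5C-Oct4GFP+), 1056 (5C-Oct4GFP-), 1109.8 (naive), 1963 (primed) and 1750.3 TPM (R1 ESCs-primed). 5C-Oct4GFP+ cells were 1.98-fold (1.92 to 2.05) above mES-Oct4GFP+ cells, a log2 difference of 0.99 and so just short of the call. After median-of-ratios rescaling this difference was 1.04 and was called. 5C-Oct4GFP- cells were 2.57-fold (2.5 to 2.65) below mES-Oct4GFP- cells. Aldoc, the brain form, had 15.7 (mES-Oct4GFP+), 204 (mES-Oct4GFP-), 89.01 (5C-Oct4GFP+), 247 (5C-Oct4GFP-), 19.9 (naive), 26.8 (primed) and 16.7 TPM (R1 ESCs-primed). It was 5.68-fold (4.26 to 7.73) higher with 5C medium in the Oct4GFP+ fraction, and its share of aldolase TPM reached 19.0% in 5C-Oct4GFP- cells against at most 7.0% elsewhere. Tpi1, which interconverts the triose phosphates, was 170.1 TPM in the Oct4GFP+ and 1383 TPM in the Oct4GFP- fraction of mES medium, 468 and 632 TPM in the same fractions of 5C medium, and 524, 746 and 697 TPM in the naive, primed and R1 ESCs-primed libraries. mES-Oct4GFP+ cells were lowest, 2.75-fold (2.55 to 2.96) below 5C-Oct4GFP+ cells, and mES-Oct4GFP- cells were highest, 2.19-fold (2.11 to 2.27) above 5C-Oct4GFP- cells.

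Gapdh, which oxidises glyceraldehyde-3-phosphate and is a common reference gene, had 7729.7 (mES-Oct4GFP+), 9200.4 (mES-Oct4GFP-), 7973 (5C-Oct4GFP+), 5680.4 (5C-Oct4GFP-), 11168 (naive), 11903 (primed) and 11873 TPM (R1 ESCs-primed). The ratio of 5C-Oct4GFP+ to mES-Oct4GFP+ cells was 1.03-fold (1.02 to 1.05), and 5C-Oct4GFP- cells were 1.62-fold (1.59 to 1.65) below mES-Oct4GFP- cells. Its copy Gm3839, which shares 56.4% of its words, held at most 14.4 TPM. Pgk1, which makes the first ATP after the triose phosphates, was 260.2 TPM in the Oct4GFP+ and 1791 TPM in the Oct4GFP- fraction of mES medium, 821 and 611 TPM in the same fractions of 5C medium, and 329, 1249 and 997 TPM in the naive, primed and R1 ESCs-primed libraries. It was 3.16-fold (2.99 to 3.34) higher with 5C medium in Oct4GFP+ cells and 2.93-fold (2.83 to 3.03) lower with it in Oct4GFP- cells. The copy Pgk1-rs7 shares all its words with Pgk1, so reads may be split between them. It held 347 TPM in mES-Oct4GFP-, 188 in primed and 214 TPM in R1 ESCs-primed cells and at most 2.78 TPM in the other 4 libraries.

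Pgam1, the phosphoglycerate mutase, had 569 (mES-Oct4GFP+), 998.5 (mES-Oct4GFP-), 678 (5C-Oct4GFP+), 522 (5C-Oct4GFP-), 684 (naive), 1090.1 (primed) and 1033 TPM (R1 ESCs-primed). Neither medium comparison reached 2-fold, the larger difference being -0.93 in the Oct4GFP- fraction. Bpgm, which makes 2,3-bisphosphoglycerate, had 8.73 (mES-Oct4GFP+), 20.9 (mES-Oct4GFP-), 12.9 (5C-Oct4GFP+), 21.5 (5C-Oct4GFP-), 7.99 (naive), 40.3 (primed) and 41.1 TPM (R1 ESCs-primed). The primed and R1 ESCs-primed libraries were highest, and the ratio of the 2 Oct4GFP- libraries was 1.03-fold (0.839 to 1.26).

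Enolase gave one of the larger differences. Eno1, the ubiquitous form, was 283 TPM in the Oct4GFP+ and 1497 TPM in the Oct4GFP- fraction of mES medium, 1539 and 945 TPM in the same fractions of 5C medium, and 792, 2151 and 1933 TPM in the naive, primed and R1 ESCs-primed libraries. mES-Oct4GFP+ cells lay below all others, 5.44-fold (5.18 to 5.72) under 5C-Oct4GFP+ cells, while 5C-Oct4GFP- cells were 1.58-fold (1.54 to 1.63) under mES-Oct4GFP- cells. The gene Eno1b shares 87.9% of its 31-base words with Eno1, and the tables give it a higher level in every library, between 425 (mES-Oct4GFP+) and 3068 TPM (primed), so the split of reads between the pair is uncertain. The total of Eno1, Eno2 and Eno3 in Oct4GFP+ cells was 1561 TPM with 5C against 300.0 TPM with mES medium, and 3185 against 725 TPM, a 4.39-fold ratio, with Eno1b added. Eno2, the neuronal form, had 3.09 (mES-Oct4GFP+), 73.7 (mES-Oct4GFP-), 5.07 (5C-Oct4GFP+), 15.4 (5C-Oct4GFP-), 1.6 (naive), 10.8 (primed) and 8.21 TPM (R1 ESCs-primed). Eno3, the muscle form, had 13.9 (mES-Oct4GFP+), 62.3 (mES-Oct4GFP-), 16.98 (5C-Oct4GFP+), 20.2 (5C-Oct4GFP-), 6.71 (naive), 26.9 (primed) and 22.6 TPM (R1 ESCs-primed). Both were highest in mES-Oct4GFP- cells, 4.78-fold (4 to 5.74) and 3.08-fold (2.48 to 3.86) above 5C-Oct4GFP- cells. Pkm, the pyruvate kinase outside liver and red cells, was 1024 TPM in the Oct4GFP+ and 3635 TPM in the Oct4GFP- fraction of mES medium, 2582 and 2103 TPM in the same fractions of 5C medium, and 1217, 3517.5 and 3324 TPM in the naive, primed and R1 ESCs-primed libraries. It was 2.52-fold (2.46 to 2.58) higher with 5C medium in the Oct4GFP+ fraction and 1.73-fold (1.7 to 1.76) lower with 5C medium in the Oct4GFP- fraction, the latter short of the call. The tables are per gene and do not separate the M1 and M2 forms of Pkm.

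Lactate dehydrogenase is a tetramer of A subunits, which favour lactate formation, and B subunits, which favour its oxidation. Ldha (chr7:46841475-46855627) was 217 TPM in the Oct4GFP+ and 2699 TPM in the Oct4GFP- fraction of mES medium, 662 and 1127 TPM in the same fractions of 5C medium, and 254, 3279 and 2770.0 TPM in the naive, primed and R1 ESCs-primed libraries. Primed, R1 ESCs-primed and mES-Oct4GFP- cells formed the high end, and mES-Oct4GFP+ and naive cells the low end. The level was 3.04-fold (2.85 to 3.25) higher with 5C medium in the Oct4GFP+ fraction and 2.4-fold (2.33 to 2.46) lower with 5C medium in the Oct4GFP- fraction. Ldhb was lowest in mES-Oct4GFP- cells, at 129 TPM, and highest in naive cells, at 791 TPM, and differed between the media by 0.11 in the Oct4GFP+ and 0.17 in the Oct4GFP- fraction. Of the lactate dehydrogenase TPM, Ldha held 36.7% in mES-Oct4GFP+ cells, 62.0% in 5C-Oct4GFP+ cells and 24.3% in naive cells. It held 88.6% in 5C-Oct4GFP- cells and between 94.9% and 96.1% in the other 3 libraries.

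Lactate leaves cells through MCT1, the product of Slc16a1, and MCT4, the product of Slc16a3, which is typical of glycolytic cells. Slc16a3 (chr11:120948480-120960868) was 2.22 TPM in the Oct4GFP+ and 406 TPM in the Oct4GFP- fraction of mES medium, 154 and 89.7 TPM in the same fractions of 5C medium, and 1.72, 146 and 188 TPM in the naive, primed and R1 ESCs-primed libraries. The mES-Oct4GFP+ and naive libraries, with 12 and 24 reads, stood apart from the other 5, which had at least 89.7 TPM. This was the largest difference between the media among the members in the Oct4GFP+ fraction, 69.5-fold (39.6 to 135) higher with 5C medium, and it went with a 4.53-fold (4.19 to 4.9) lower level with 5C medium in the Oct4GFP- fraction. The transcript length the tables use for this gene varied from 1695 to 3024 bases between libraries. Slc16a1 had 40.3 (mES-Oct4GFP+), 123 (mES-Oct4GFP-), 27.97 (5C-Oct4GFP+), 50.8 (5C-Oct4GFP-), 28.3 (naive), 99.2 (primed) and 81.6 TPM (R1 ESCs-primed). It was 2.43-fold (2.25 to 2.62) lower with 5C medium in the Oct4GFP- fraction and 1.44-fold (1.29 to 1.61) lower with 5C medium in the Oct4GFP+ fraction, the latter short of the call. Slc16a3 held 5.22% of the TPM of both transporters in mES-Oct4GFP+ and 5.73% in naive cells, but 84.6% in 5C-Oct4GFP+ cells and between 59.6% and 76.7% in the rest. Together the pair summed to 42.5 TPM with mES and 182 TPM with 5C medium in Oct4GFP+ cells.

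**Figure D3:**
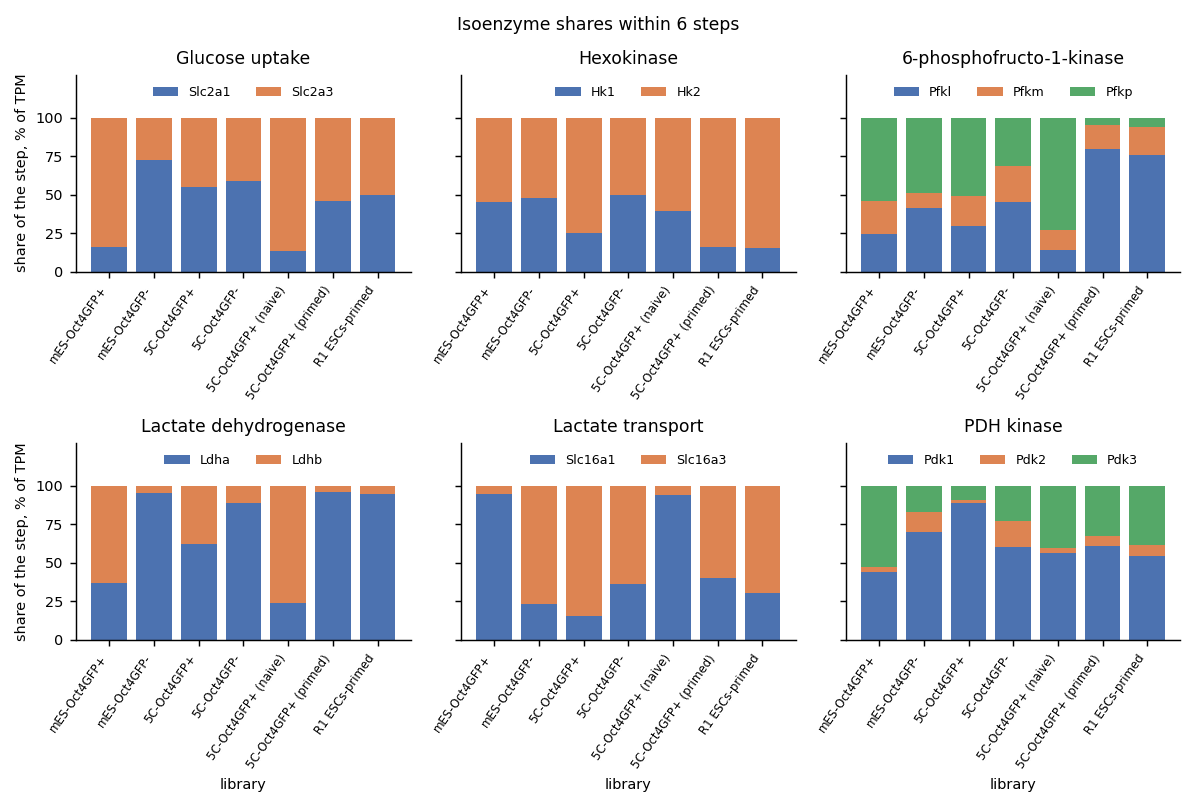
Share of each isoenzyme or transporter in the summed TPM of its step (y axis, %) in each of the 7 libraries (x axis), for 6 steps. Ldha holds 36.7% of lactate dehydrogenase in mES-Oct4GFP+ and 24.3% in naive cells but 62.0% in 5C-Oct4GFP+ cells, and Slc16a3 holds 5.22%, 5.73% and 84.6% of lactate transport in the same 3 libraries.

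At the mitochondrial gate, PDH kinases switch off pyruvate dehydrogenase. Pdk1 (chr2:71873224-71903858) was 28.7 TPM in the Oct4GFP+ and 162 TPM in the Oct4GFP- fraction of mES medium, 233 and 75.1 TPM in the same fractions of 5C medium, and 35.98, 44.9 and 39.6 TPM in the naive, primed and R1 ESCs-primed libraries. 5C-Oct4GFP+ cells were the highest library and mES-Oct4GFP+ cells the lowest, 8.13-fold (7.11 to 9.33) apart, and 5C-Oct4GFP- cells were 2.16-fold (1.99 to 2.34) below mES-Oct4GFP- cells. Pdk1 made up 88.6% of the PDH kinase TPM in 5C-Oct4GFP+ cells and 44.2% in mES-Oct4GFP+ cells. Pdk2 had 2.21 (mES-Oct4GFP+), 29.2 (mES-Oct4GFP-), 6.29 (5C-Oct4GFP+), 20.7 (5C-Oct4GFP-), 2.03 (naive), 4.97 (primed) and 5.14 TPM (R1 ESCs-primed), and was 2.85-fold (1.65 to 5.22) higher with 5C medium in the Oct4GFP+ fraction on 78 and 16 reads. Pdk3 ranged only from 23.8 TPM in 5C-Oct4GFP+ to 39.6 TPM in mES-Oct4GFP- cells.

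Pdhb, the beta subunit of the E1 enzyme of pyruvate dehydrogenase, had 268 (mES-Oct4GFP+), 122 (mES-Oct4GFP-), 279 (5C-Oct4GFP+), 148 (5C-Oct4GFP-), 311 (naive), 180.3 (primed) and 193 TPM (R1 ESCs-primed). The levels followed the sorted fraction, 2.19-fold (2 to 2.4) higher in mES-Oct4GFP+ than in mES-Oct4GFP- cells, and the medium difference was 0.05 in Oct4GFP+ cells. Pdha1, the alpha subunit, ranged from 114 TPM in primed to 236 TPM in 5C-Oct4GFP- cells. Mpc1, a subunit of the mitochondrial pyruvate carrier, had 74.0 (mES-Oct4GFP+), 75.9 (mES-Oct4GFP-), 35.3 (5C-Oct4GFP+), 59.3 (5C-Oct4GFP-), 76.9 (naive), 32.1 (primed) and 61.7 TPM (R1 ESCs-primed). 5C-Oct4GFP+ and primed cells were lowest, and 5C-Oct4GFP+ cells were 2.1-fold (1.67 to 2.64) below mES-Oct4GFP+ cells. Mpc2 ranged from 11.04 TPM in R1 ESCs-primed to 37.5 TPM in mES-Oct4GFP- cells.

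The last 3 members sit beside the pathway. Pgm1, a phosphoglucomutase that links glycolysis to glycogen, was 16.1 TPM in the Oct4GFP+ and 127 TPM in the Oct4GFP- fraction of mES medium, 39.6 and 43.8 TPM in the same fractions of 5C medium, and 7.35, 46.4 and 36.5 TPM in the naive, primed and R1 ESCs-primed libraries. mES-Oct4GFP- cells were highest and naive cells lowest, and the gene was 2.46-fold (2.02 to 3.02) higher with 5C medium in Oct4GFP+ cells and 2.9-fold (2.6 to 3.24) lower with it in Oct4GFP- cells. The symbols Pgm1 and Pgm2 were once used the other way round in mouse, and the values here are those of the gene on chromosome 4 that now bears the name Pgm1. Pgm2 had 23.9 TPM with 5C and 74.98 TPM with mES medium in Oct4GFP+ cells and 58.9 and 40.6 TPM in Oct4GFP- cells, so with the older names Pgm1 would not be among the 9 members of opposite calls. Acss1, which makes acetyl-CoA from acetate in mitochondria, had 10.4 (mES-Oct4GFP+), 0.64 (mES-Oct4GFP-), 8.83 (5C-Oct4GFP+), 11.9 (5C-Oct4GFP-), 12.8 (naive), 3.0 (primed) and 2.93 TPM (R1 ESCs-primed). The mES-Oct4GFP- library held 10 reads, and 5C-Oct4GFP- cells were 18.5-fold (9.8 to 39.5) higher. Aldh3a1, an aldehyde dehydrogenase known from corneal epithelium, had 0.55 (mES-Oct4GFP+), 351 (mES-Oct4GFP-), 6.91 (5C-Oct4GFP+), 69.9 (5C-Oct4GFP-), 0.51 (naive), 0 (primed) and 0.16 TPM (R1 ESCs-primed). Both Oct4GFP- libraries were high, mES-Oct4GFP- cells 5.02-fold (4.56 to 5.54) above 5C-Oct4GFP- cells. The sums of the epithelial markers did not have the same order. The sum in 5C-Oct4GFP- cells, 775.9 TPM, lay near the 729.7 TPM of 5C-Oct4GFP+ cells. It was below the 1374.4 TPM of the primed library, where Aldh3a1 was at 0. Of the single markers on that list, Krt14 had its 3 highest libraries in the order of Aldh3a1. It fell from 75.3 TPM (mES-Oct4GFP-) through 44.8 TPM (5C-Oct4GFP-) to 2.82 TPM (5C-Oct4GFP+). Krt14 was at 0 in the other libraries and gave no order among them. Krt5, Krt8, Krt18, Epcam and Cdh1 each had a different order. The part of other cell types in these differences was not tested. In mES-Oct4GFP+ cells Aldh3a1 rested on 3 reads, and the ratio of 5C-Oct4GFP+ to mES-Oct4GFP+ cells was 12.6-fold (4.14 to 62.9).

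Promoters are shown for the 4 members with the largest medium differences that have a RefSeq promoter window (GRCm38.p6). Each is given as the 250 bases before the start site, 5′ to 3′ on the strand of the gene. Of the 4, only Slc16a3 and Pdk1 are among the 9 members of opposite calls. Capitals mark ACGTG, the core of the element that hypoxia-inducible factors bind, and GCGTG, a variant of it, on either strand. Where the palindrome CACGTG stands, ACGTG occurs on both strands and overlaps itself.
Slc16a3 (chr11:120948817-120949066, plus strand): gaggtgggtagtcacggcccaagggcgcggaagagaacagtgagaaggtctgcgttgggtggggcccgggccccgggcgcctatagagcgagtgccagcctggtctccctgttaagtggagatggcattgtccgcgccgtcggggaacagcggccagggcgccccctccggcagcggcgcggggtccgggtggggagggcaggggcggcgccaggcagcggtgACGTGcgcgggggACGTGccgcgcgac
Pdk1 (chr2:71872974-71873223, plus strand): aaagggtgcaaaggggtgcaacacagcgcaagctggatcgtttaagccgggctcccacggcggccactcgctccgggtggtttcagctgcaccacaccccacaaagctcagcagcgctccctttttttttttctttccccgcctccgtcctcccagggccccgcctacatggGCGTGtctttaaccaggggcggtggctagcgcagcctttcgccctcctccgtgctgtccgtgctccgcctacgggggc
Acss1 (chr2:150668241-150668490, minus strand): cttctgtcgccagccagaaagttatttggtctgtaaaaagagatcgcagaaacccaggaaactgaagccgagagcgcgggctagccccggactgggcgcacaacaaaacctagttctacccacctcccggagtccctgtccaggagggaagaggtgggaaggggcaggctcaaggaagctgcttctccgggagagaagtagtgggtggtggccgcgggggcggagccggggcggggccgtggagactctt
Fbp2 (chr13:62858401-62858650, minus strand): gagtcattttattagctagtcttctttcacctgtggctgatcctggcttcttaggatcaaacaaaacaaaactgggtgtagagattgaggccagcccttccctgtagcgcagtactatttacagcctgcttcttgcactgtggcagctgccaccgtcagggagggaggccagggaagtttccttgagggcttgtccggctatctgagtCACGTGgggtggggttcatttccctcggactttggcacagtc
The Slc16a3 promoter held ACGTG at 2 places, which begin 27 and 14 bases before the start site. The Pdk1 promoter held GCGTG once in the printed bases, beginning 78 bases before the start site. Another GCGTG begins 2 bases before the start site and runs past the printed bases, so it is not in capitals. A second window of that gene held neither motif. No ACGTG or GCGTG stood in the printed bases of Acss1, and Fbp2 held 1 CACGTG. Over the whole windows, which reach 50 bases past the start site, ACGTG was in 20 of the 37 members that have a window (54.1%) and in 21.8% of the 27025 genes with one. GCGTG was in 24 of the 37 (64.9%) and in 35.2% of all genes. These counts take a gene as holding the motif when any of its windows does, which favours genes with several windows. Counted by window, ACGTG was in 42.1% of the 57 member windows and in 19.6% of all 32851 windows. GCGTG was in 52.6% and 32.4%. All genes with a window were taken, whatever their level or base content. The counts describe letters in the windows of all members, called between the media or not, and were not tested.

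The sorted fractions were compared within each medium, using the same 4 libraries as above. In mES medium, 22 of the 39 members were at least 2-fold lower in Oct4GFP+ than in Oct4GFP- cells and 4 (Fbp1, Ldhb, Pdhb, Acss1) were higher. These are 56.4% and 10.3%, against 28.8% and 17.9% of the 16294 genes tested, and the median difference was -1.46 over the members and -0.15 over all genes. Slc16a3 was 183-fold (105 to 354) lower in the Oct4GFP+ cells, Slc2a1 17.3-fold (16.2 to 18.6), Eno2 23.8-fold (14.8 to 41.2) and Ldha 12.4-fold (11.7 to 13.2). Ldhb was 2.91-fold (2.65 to 3.2) higher in them. Fbp1 was called on 3 and 1 reads and its ratio, 10.4-fold (0.833 to 545), has an interval that includes 1. With FPKM it was not tested, and the call of Bpgm ended, at -0.99.

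In 5C medium the fractions were closer. Of the 39 members, 8 were at least 2-fold lower in Oct4GFP+ than in Oct4GFP- cells and 3 (Pfkp, Ldhb, Pdk1) were higher. These are 20.5% and 7.69%, against 22.6% and 8.45% of the 15675 genes tested, so the share of members called was near that of all genes. The median difference was -0.10 over the members and -0.25 over all genes, a shift of the whole table that was -0.10 after rescaling by the median of ratios, when the members' median was 0.06. The lower members were Pfkfb3, Pfkfb4, Fbp2, Aldoc, Eno2, Pdk2, Mpc2 and Aldh3a1. Slc2a1 was 1.29-fold (1.24 to 1.35) and Slc16a3 1.72-fold (1.58 to 1.87) higher in the Oct4GFP+ cells, and Ldha was 1.7-fold (1.64 to 1.76) lower. Pdk1 was 3.1-fold (2.87 to 3.35) and Pfkp 3.14-fold (2.94 to 3.35) higher in them. The fibroblast sums given above differed between the fractions in both media.

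The conversion libraries were then set against 5C-Oct4GFP+ cells, from which both were made. In naive medium, 14 of 39 members were at least 2-fold lower than in 5C-Oct4GFP+ cells and 4 (Slc2a3, Pfkfb2, Fbp2, Mpc1) were higher. These are 35.9% and 10.3%, against 17.5% and 10.0% of the 14863 genes tested, with medians of -0.28 and -0.10. In naive cells Slc16a3 was 89.6-fold (60 to 140.0) lower, Pdk1 6.48-fold (5.82 to 7.23), Pfkl 5.4-fold (4.93 to 5.93), Pgm1 5.39-fold (4.23 to 6.88), Slc2a1 3.27-fold (3.08 to 3.47) and Ldha 2.61-fold (2.47 to 2.75). Slc2a3 was 2.41-fold (2.34 to 2.48) and Fbp2 6.04-fold (2.47 to 17.8) higher. Ldhb was 1.95-fold (1.86 to 2.04) higher, short of the call. This comparison and the medium comparison of the Oct4GFP+ fraction share the 5C-Oct4GFP+ library, so a low or high value in that library enters both.

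Against mES-Oct4GFP+ cells, which were not their source, naive cells had fewer called members than in the comparison with their source, though a larger share than among all genes. Of 38 tested, 4 (Pfkp, Tpi1, Eno1, Ldhb) were at least 2-fold higher and 2 (Fbp2, Pgm1) lower, together 15.8% of the members, against 8.77% of the 14477 genes tested. The call of Pgm1 ended with FPKM, at -0.90, and with median-of-ratios rescaling, at -0.92, and that of Fbp2 ended with FPKM, just inside the threshold. Slc2a1 stood at 116 TPM in naive cells beside 102 TPM, Pfkl at 31.04 and 31.7 TPM, and Slc16a3 at 1.72 and 2.22 TPM. Tpi1 was 3.08-fold (2.86 to 3.32), Eno1 2.8-fold (2.66 to 2.95), Pfkp 2.29-fold (2.1 to 2.49) and Ldhb 2.11-fold (1.98 to 2.24) higher in naive cells.

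In primed medium, 5 of 38 members were at least 2-fold higher than in 5C-Oct4GFP+ cells (Pfkfb1, Pfkfb3, Bpgm, Ldha, Slc16a1) and 9 were lower (Hk1, Pfkm, Pfkp, Fbp1, Aldoc, Ldhb, Pdk1, Acss1, Aldh3a1). These are 13.2% and 23.7%, against 13.7% and 16.1% of the 15067 genes tested, and the medians were -0.03 and 0.06. The share of higher members was near that of all genes, and that of lower members above it. Ldha was 4.95-fold (4.82 to 5.1) and Slc16a1 3.55-fold (3.26 to 3.86) higher in primed cells, and Pfkp was 21.4-fold (18.8 to 24.3), Pdk1 5.19-fold (4.77 to 5.66) and Ldhb 3.06-fold (2.84 to 3.29) lower. Slc16a3 was 146 TPM in primed and 154 TPM in 5C-Oct4GFP+ cells, a ratio of 1.05-fold (0.987 to 1.12).

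Between naive and primed cells of the common 5C origin, the 4 members with the largest differences were Slc16a3, Ldha, Pfkp and Pfkl. Ldha was 12.9-fold (12.3 to 13.6) and Slc16a3 85.1-fold (57 to 133) lower in naive cells, and Pfkl was 7.19-fold (6.57 to 7.88) lower. Pfkp was 11.9-fold (10.5 to 13.6), Ldhb 5.96-fold (5.56 to 6.39) and Hk1 4.44-fold (4 to 4.94) higher in them. 5C-Oct4GFP+ cells lay between the 2 for 19 members, above both for 12 and below both for 8, which is 48.7%, 30.8% and 20.5%, against 46.4%, 29.2% and 24.4% of 15824 genes. These shares were near those of all genes.

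**Figure D4:**
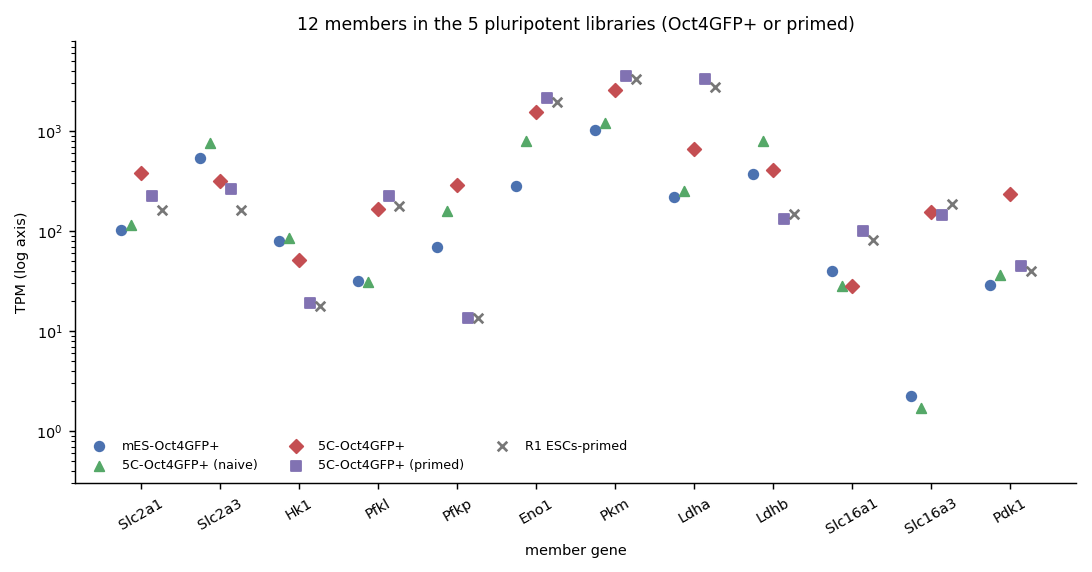
TPM (log axis) of 12 members in the 5 libraries of Oct4GFP+ or primed cells. For Slc16a3, mES-Oct4GFP+ and naive cells lie at 2.22 and 1.72 TPM while 5C-Oct4GFP+, primed and R1 ESCs-primed cells lie between 146 and 188 TPM, and for Pdk1 the 5C-Oct4GFP+ library stands alone at 233 TPM.

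Primed cells of 5C origin were then compared with R1 ESCs-primed. None of the 36 members tested reached 2-fold, against 7.39% of the 14600 genes tested. The differences ran from -0.92, for Mpc1, to 0.67, for Slc2a3. Slc2a3 was 1.6-fold (1.53 to 1.67) higher and Mpc1 1.92-fold (1.51 to 2.44) lower in the 5C-derived cells. Ldha was 3279 and 2770.0 TPM, Pfkp 13.4 and 13.5 TPM, and Hk2 99.0 and 99.7 TPM. How far the members differ between 2 cultures of the same kind is not known from these data.

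A list of 83 other genes of the pathway was read in the same way. In Oct4GFP+ cells, 67 of them were tested, of which 11 were at least 2-fold higher and 6 lower with 5C medium, and in Oct4GFP- cells 73 were tested, of which 2 were higher and 9 lower. These are 16.4% and 8.96% in Oct4GFP+ cells, against 13.7% and 13.5% of all genes tested, and 2.74% and 12.3% in Oct4GFP- cells, against 9.68% and 10.1%. Their medians were -0.03 and 0.11, beside -0.06 and 0.03 over all genes. The list as a whole thus lay near all genes, save for few higher members in Oct4GFP- cells. Beside glycolysis, the kinase Pdk4, an inhibitor of pyruvate dehydrogenase like Pdk1, was 12.1 TPM in Oct4GFP+ cells of 5C against 2.56 TPM in those of mES medium, while Pdp2, the phosphatase that reactivates the complex, was 7.08 against 38.2 TPM. Pcx and Pck2, enzymes that feed oxaloacetate and phosphoenolpyruvate, were 33.1 and 53.3 TPM against 12.6 and 18.9 TPM. The intracellular glucose transporter Slc2a8 was 34.5 against 8.95 TPM and Ldhd, which oxidises D-lactate, 8.99 against 1.31 TPM. On the lower side Pgm2 was 23.9 against 74.98 TPM, Pgm2l1 4.34 against 11.4 TPM and Slc16a6 8.8 against 20.9 TPM. In the Oct4GFP- fraction Bsg, the chaperone of the lactate transporters, was 519.7 TPM in 5C and 1417 TPM in mES medium, Me1, which makes NADPH and pyruvate, 50.1 and 149 TPM, Pygl, which breaks down glycogen, 15.5 and 38.6 TPM, and Ugp2, which feeds glycogen synthesis, 28.8 and 61.6 TPM. Slc16a6 and Hkdc1 were 3.42 and 1.88 TPM in 5C against 10.6 and 7.37 TPM in mES medium there, and Gpd1 was 7.06 against 2.11 TPM.

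Regulators of the pathway were among these genes. Egln3, a prolyl hydroxylase and a known target of hypoxia-inducible factors, was 5.1 TPM in the Oct4GFP+ and 799.9 TPM in the Oct4GFP- fraction of mES medium, 41.95 and 113 TPM in the same fractions of 5C medium, and 2.04, 10.99 and 13.3 TPM in the naive, primed and R1 ESCs-primed libraries. Of the 4 sorted libraries it was highest in mES-Oct4GFP- and lowest in mES-Oct4GFP+ cells, as Slc16a3 was, but in 5C medium it was higher in the Oct4GFP- fraction, where Slc16a3 was higher in the Oct4GFP+ fraction. Epas1, which codes for HIF-2alpha, was 90.5 TPM with 5C and 14.1 TPM with mES medium in Oct4GFP+ cells, whereas Hif1a was 69.8 and 51.4 TPM and was not called. Vhl, which marks those factors for decay, was 10.2 and 33.5 TPM. Mlxipl, which codes for the glucose sensor ChREBP, was 2.55 TPM with 5C and 92.1 TPM with mES medium in the same fraction, and its relative Mlxip was 13.4 and 5.68 TPM. Myc was 211.5 and 74.04 TPM and Mycn 159 and 49.7 TPM in the same 2 libraries. Txnip, which restrains glucose uptake, was 120.0 TPM with 5C and 529 TPM with mES medium in Oct4GFP- cells. Esrrb, a pluripotency factor, was 15.3 and 1.26 TPM there.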

How the data were processed

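RNA from 7 samples, 1 per group, was sequenced by the authors on a MiSeq from TruSeq v2 libraries. Per the labels, reads were mapped with Bowtie and quantified with RSEM on mm10, with versions not given in the sources used here. The authors deposited, per gene, expected counts (estimated read numbers), TPM and FPKM, with no replicate to pool. Groups were taken from the sample titles. The 39 members and the other gene lists were chosen with earlier results of these data known.

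Analyses used Python 3.11.15, numpy 2.4.6, pandas 2.3.3 and scipy 1.17.1. A gene was tested in a comparison when it reached 1 TPM in either library, and called at 2-fold on log2(TPM + 1), with no p-value. Each ratio has an exact 95% interval after Clopper and Pearson, for which expected counts were rounded. For a gene with no read in a library, the TPM that 3 reads would have given was taken as a floor. No gene or call was removed by this floor. In simulated counts the intervals were checked against known ratios. Those counts held counting error only and no reads shared between genes of like sequence. Members were given in all 7 libraries when called between the media in either fraction or highest in their step, and pathway genes when called there with 5 TPM in either library. Alternatives were a pseudocount of 0.1, a minimum of 5 TPM, no minimum, FPKM, median-of-ratios rescaling and 1.5-fold. Shared sequence was counted over 31-base words of the GENCODE transcripts, taken every 8 bases. Protein sequences were not used here.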

Additional observations from a re-analysis of the deposited data

Results flagged for a closer look

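For 9 members the medium difference went in opposite directions in the 2 sorted fractions, at least 2-fold in each. The differences of log2(TPM + 1), 5C minus mES medium, are given first for Oct4GFP+ and then for Oct4GFP- cells. They were 5.59 and -2.17 for Slc16a3, 2.98 and -1.10 for Pdk1, 2.35 and -2.31 for Aldh3a1, and 2.02 and -1.52 for Pfkp. Slc2a1 had 1.88 and -2.59, Pgk1 1.65 and -1.55, and Ldha 1.60 and -1.26. Tpi1 had 1.45 and -1.13, and Pgm1 1.25 and -1.51. With 1 library in each group, the difference between the fractions was not tested.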

How the results depend on the processing

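No paired analysis was possible because each group is 1 library. Over the 8 comparisons, the number of members higher and the number lower moved by no more than 1.5 times with a pseudocount of 0.1, a minimum of 5 TPM and no minimum. With FPKM and with the rescaling, the members lower in naive than in mES-Oct4GFP+ cells were 0 and 1, in place of 2, and no other count moved beyond that limit. Besides the calls given above, FPKM ended that of Eno2 in naive against 5C-Oct4GFP+ cells and that of Fbp1 in primed against 5C-Oct4GFP+ cells, at -0.97 and -0.76. Rescaling and FPKM took Ldhb in naive against 5C-Oct4GFP+ cells past 2-fold, at 1.04 and 1.03. Rescaling alone did so for Aldoa in 5C-Oct4GFP+ against mES-Oct4GFP+ cells, at 1.04. It also did so for Pdhb in 5C-Oct4GFP+ against 5C-Oct4GFP- cells, at 1.06. At 1.5-fold, more members were called. Then 7 members were lower with 5C medium in the Oct4GFP+ fraction. In 5C-Oct4GFP+ against 5C-Oct4GFP- cells, 12 were higher and 13 lower. Against 5C-Oct4GFP+ cells, 8 were higher in naive and 10 in primed cells. In primed cells against R1 ESCs-primed, 2 were higher and 1 lower, and 5 were lower in naive than in mES-Oct4GFP+ cells. The members' median in 5C-Oct4GFP+ minus 5C-Oct4GFP- cells turned from -0.10 to 0.06 with the rescaling, which changes only the scale of each library. Adding Eno1b, an alternative chosen after seeing the data, moved the enolase ratio by more than 1.1-fold in 4 of the 8 comparisons. Depth limits Fbp1 in every library, and Aldh3a1, Fbp2 and Slc16a3 in those where they rest on few reads.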
